A study of Mus musculus with 106 samples.

Results

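Of the single mouse cells profiled on Affymetrix arrays in this study, 8 were chosen because they held transcripts of Blimp1, Oct4 and Hoxb1 together, beside 98 others. Of these, 4 are described as early head fold (EHF) and 4 as early or mid bud (E/MB), and the values here set the EHF cells against the E/MB cells. Blimp1 is the product of Prdm1 and Oct4 that of Pou5f1. All 8 were wild-type cells of C57BL/6 embryos, dissected without any named treatment, dissociated with trypsin and EDTA and amplified one cell to an array. The EHF cells carry replicate numbers 5 to 8 and the E/MB cells 1 to 4. The titles of the EHF cells say E/MB, while their descriptions and source names say EHF, so the stage of these 4 cells rests on 2 labels against 1. Cells had also been screened for fragilis (Ifitm3), and the genes used in the choice of the cells are no finding here. Since the embryos of origin are not named, a group counts as 1 sample: every SD is over its 4 cells, and no difference between groups is tested.

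Primordial germ cells (PGCs), the founders of sperm and eggs, arise from posterior epiblast cells in which Blimp1 represses the somatic mesodermal program while Prdm14 and Tfap2c establish the germline one. Hox genes are switched on in the neighbouring mesoderm at the base of the allantois, the embryonic stalk that later contributes to the umbilical cord, and Hoxb1 is among the genes that Blimp1-positive cells on the germline path keep off. Cells that leave the epithelial epiblast for the mesoderm lose E-cadherin and keratins and switch on the repressor Snai1. The wider study followed this path from the epiblast to PGCs, with posterior mesoderm and Blimp1 knockout cells (Blimp1-/-) beside it, in 11 groups. Values from 4 of those groups appear below for scale, namely 8 PGCs at EHF, 8 PGCs at E/MB, 10 Blimp1-negative posterior mesoderm cells at E/MB and 12 knockout cells at E/MB.

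Values are log2 of the deposited MAS5 signal, with everything under a floor of 6.13 (a signal of 70.2, taken from receptor genes not used in the embryo) set to that floor. A gene was counted as detected in a cell when its signal passed the 95th percentile of the same receptor probe sets on that array, between 95.3 and 139 on these 8 arrays. Differences are EHF minus E/MB, and a gene is called higher or lower when the group means are at least 1 log2 unit (2-fold) apart. A gene at the floor may be silent or merely too weak to measure. Absence from all 4 cells of a group allows a share of expressing cells of up to 60.2% by the exact binomial interval, which covers counting error only.

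The number of probe sets detected overlapped between the groups, with 11864 ± 1106 in EHF cells and 12735 ± 470 in E/MB cells (SD, n = 4 each). Spiked hybridisation controls, however, lay between 10.03 and 10.40 log2 units on the EHF arrays and between 9.68 and 9.998 on the E/MB arrays, without overlap. Stage label and set of arrays therefore cannot be told apart in the EHF minus E/MB values. On the posterior mesoderm arrays these controls averaged 11.23 ± 0.33, so arrays and cell type cannot be told apart there. At a stricter limit, the 99th percentile of the receptor probe sets, E/MB cell 3 stood apart with 6202 probe sets, against 7887 to 7952 on the other E/MB arrays. The same cell was at the floor for the mesodermal genes Foxf1, Cdh2 and Snai1 and had the highest signals of the 8 cells for the epithelial genes Cdh1 and Epcam. Where leaving it out took a gene named below under the threshold, this is said beside the gene. Xist, the RNA that coats the silenced X, was found in EHF cell 5 and E/MB cell 3, a Y-linked transcript in EHF cells 6 and 8 and E/MB cells 1 and 2, and neither in EHF cell 7 and E/MB cell 4. Both sexes were therefore present in each group. Ppp2cb was detected in all 8 of these cells but in 1 of 8 EHF and 0 of 8 E/MB PGCs, and Abca4 in 0 of these 8 cells but in all 16 PGCs, so a set of arrays and the cell type cannot be told apart where PGC values stand beside those of the Blimp1+ Hoxb1+ cells.

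Markers of the mesoderm were present in both groups. Foxf1, a forkhead factor of the lateral mesoderm and allantois, read 11.48, 10.64, 11.28 and 11.15 in EHF cells 5 to 8, against 8.10, 10.69, 6.13 and 10.86 in E/MB cells 1 to 4. All 4 EHF cells were high, whereas the E/MB cells ran over the whole range and overlapped them. The difference of means was 2.19, and 1.25 without E/MB cell 3. Foxf1 was at the floor in all 16 PGCs and averaged 8.52 ± 1.54 in posterior mesoderm (n = 10).

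Hoxd9, a gene of the posterior Hox cluster, read 10.998, 10.51, 10.65 and 10.27 in EHF cells, against 9.98, 11.02, 7.996 and 9.61 in E/MB cells. It was detected in every one of the 8 cells and the groups overlapped. Its difference of 0.96 missed the threshold, was 0.40 without E/MB cell 3, and was -0.11 between the cells with a Y-linked transcript (2 in each group). All 6 markers of the posterior or lateral mesoderm were detected in at least 1 cell of each group, and their summed signal ran from 7631 to 12282 in EHF cells and from 2744 to 11568 in E/MB cells. Of markers of other cell types, the neural plate genes Sox1, Pax6, Six3 and Hesx1, the blood and endothelial genes Tal1, Gata1 and Cdh5, the endodermal genes Afp, Sox17 and Foxa1, and the trophoblast genes Elf5 and Krt7 were detected in none of the 8 cells.

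**Figure D1:**
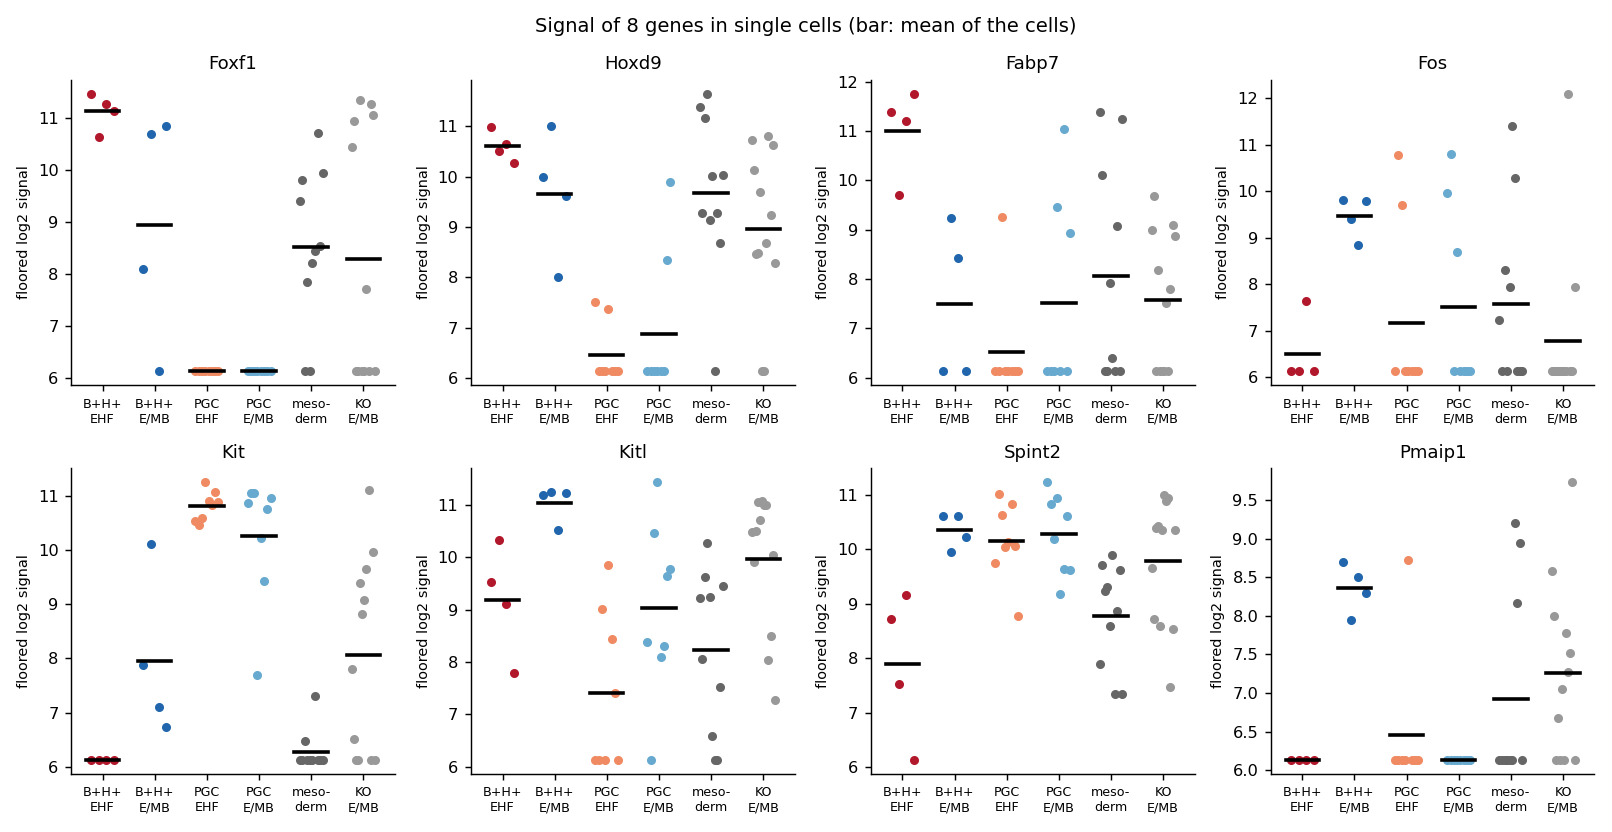
Floored log2 signal (y axis) of 8 genes in single cells; each point is 1 cell, bars are group means, and B+H+ marks the Blimp1+ Hoxb1+ cells beside PGCs, posterior mesoderm (E/MB) and Blimp1 knockout cells (E/MB). Kit and Pmaip1 were at the floor of 6.13 in all 4 EHF cells and above it in all 4 E/MB cells, while Foxf1 exceeded 10 in every EHF cell and in 2 of 4 E/MB cells.

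None of the genes of choice (Hoxb1, Prdm1, Pou5f1 and Ifitm3) differed by 1 log2 unit. Hoxb1 read 10.19, 9.98, 9.92 and 10.86 in EHF cells, against 9.92, 8.73, 8.75 and 11.08 in E/MB cells. Prdm1 read 6.35, 8.12, 8.37 and 7.70 in EHF cells, against 7.65, 9.29, 9.08 and 7.89 in E/MB cells, and passed detection in 3 of 4 EHF cells and all 4 E/MB cells. EHF cell 5 was thus chosen for Blimp1 by its amplified cDNA although its array did not detect it. Pou5f1 was detected in all 8 cells and was low (7.12) in E/MB cell 2 alone.

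Over 18193 genes with 1 symbol, 466 (2.56%) were higher and 811 (4.46%) lower in EHF cells, or 1277 (7.02%) either way. Among 7213 of them that were broadly detected over the study, 330 (4.58%) were higher and 661 (9.16%) lower. In 58 genes (0.319%) every EHF cell also lay above every E/MB cell, and in 123 (0.676%) every EHF cell lay below. Of the broadly detected genes these were 45 (0.624%) and 103 (1.43%). Detection in all 4 EHF cells and 0 of 4 E/MB cells occurred for 7 genes (0.0385%), and the opposite for 32 (0.176%). The balance between higher and lower genes depended on the scaling of the arrays. It was 624 to 710 with each array centred on the median of the 7213 broadly detected genes (found in 50% or more of the study's cells), 588 to 720 after quantile normalization, and 238 to 1153 with arrays scaled to the hybridisation controls. That last scaling moved the median difference of the broadly detected genes to -0.30, against -0.04 on the deposited scale. Among the PGCs of the same 2 stages, 329 genes (1.81%) were higher and 374 (2.06%) lower at EHF. Of 553 measured members of 37 gene lists, 30 were higher and 45 lower in EHF cells. The counts of list members below stand beside 2.56% higher and 4.46% lower over all genes. Those shares include genes at the floor in all 8 cells, which could not be called. For lists of mostly detected genes, the 4.58% and 9.16% of the broadly detected genes are the nearer comparison. In such short lists a single member is a large share, so small counts say little on their own. On the deposited scale the median difference over all genes was 0.00, since 6529 genes lay at the floor in all 8 cells.

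**Figure D2:**
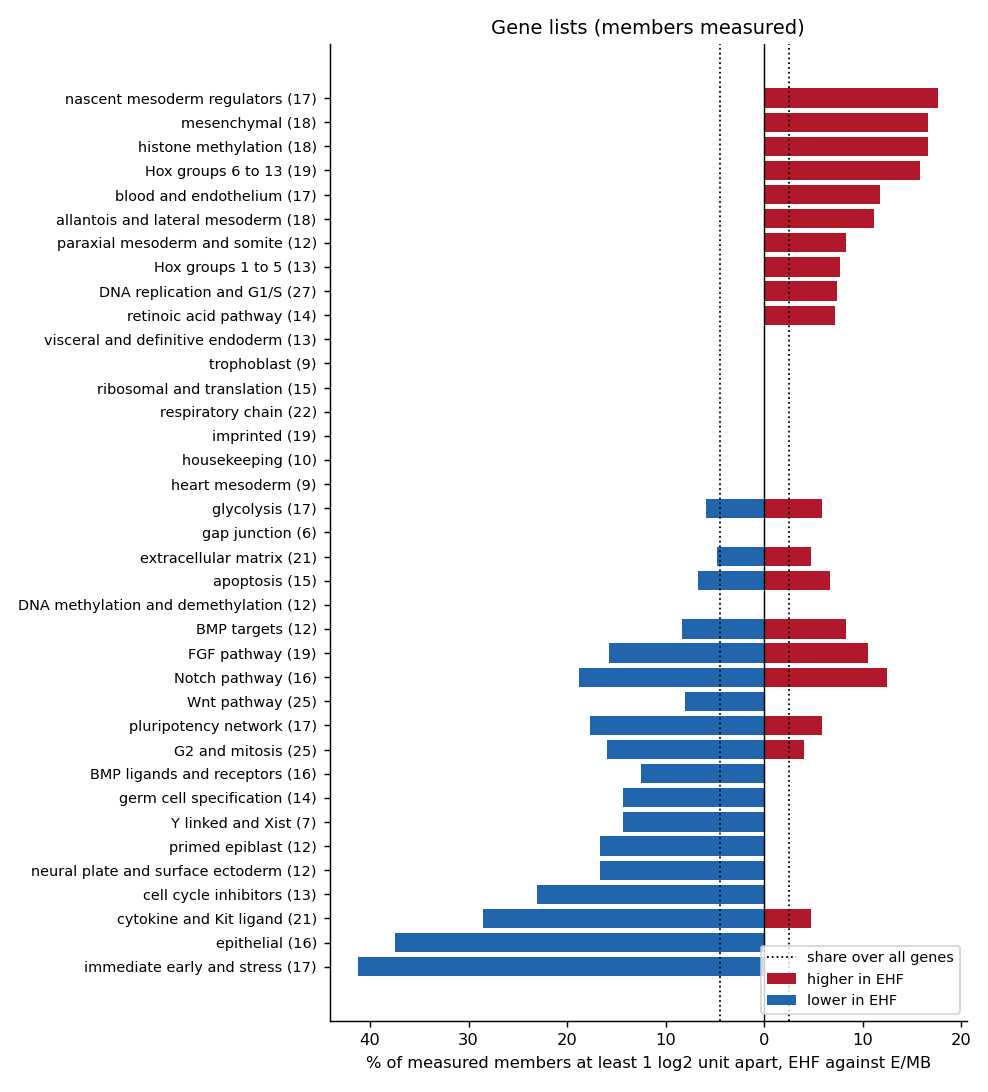
Share of each gene list (measured members in brackets) that was at least 1 log2 unit higher (right, red) or lower (left, blue) in EHF than in E/MB Blimp1+ Hoxb1+ cells, in percent; the dotted lines are the shares over all 18193 genes, 4.46% lower and 2.56% higher. Over the 7213 broadly detected genes the shares were 9.16% lower and 4.58% higher. Immediate early and epithelial genes hold the longest bars on the lower side.

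Several germline regulators were detected in E/MB cells and in 0 EHF cells, while most of their list differed by less than 1 log2 unit. Of 14 measured germ cell specification genes, 0 were higher and 2 lower (14.3%, against 4.46% over all genes), with a median difference of -0.09. Kit, the receptor tyrosine kinase of PGCs, was at the floor in all 4 EHF cells, against 7.88, 10.11, 7.10 and 6.73 in E/MB cells. It was detected in 0 of 4 and 4 of 4 cells and was at least 2.03-fold lower in EHF cells. Its difference of -1.82 in the floored means was -1.11 without E/MB cell 2, and -0.91 when both Kit probe sets were averaged, since one of them stayed at the floor in all 8 cells. Prdm14, the germline transcriptional regulator, was at the floor in all 4 EHF cells, against 9.07, 6.13, 7.40 and 8.39 in E/MB cells. It passed detection in 3 of the 4 E/MB cells. In PGCs both genes were detected in all 16 cells, and Kit averaged 10.81 ± 0.27 at EHF and 10.25 ± 1.17 at E/MB (n = 8 each).

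Tfap2c, the AP2 factor that acts beside Prdm14, was detected in 0 EHF cells and in 2 E/MB cells, where it read 7.07 (cell 1) and 8.64 (cell 4). Nanog, a pluripotency factor that PGCs keep, was at the floor in all EHF cells, against 6.48, 6.13, 9.15 and 9.40 in E/MB cells. Counting Kit, Prdm14, Tfap2c and Nanog together, EHF cells had 0 of the 4 genes in every case, whereas E/MB cells 1 and 3 had 3, cell 4 had all 4, and cell 2 had 1 only. These 4 genes were picked for this count after their values had been seen, so the 0 in EHF cells was fixed by the choice. Nanog came from the pluripotency list, and Dppa3 and Dnd1 were left out. Of the 6 germ cell markers (Dppa3, Prdm14, Tfap2c, Dnd1, Kit and Sox2), EHF cells 5 to 8 had 1, 0, 1 and 1. E/MB cells 1 to 4 had 3, 1, 3 and 3 of these markers, so the groups overlapped through E/MB cell 2. The germ cell genes Dppa3 (stella) and Dnd1 ran the other way in part, with Dppa3 detected in 1 EHF cell and 0 E/MB cells and Dnd1 in 2 EHF cells and 1 E/MB cell. Sox2 was detected in none of the 8.

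The mean over the germ cell list, taken as a score for each cell, lay between 8.01 and 8.17 in EHF cells and between 8.39 and 8.63 in E/MB cells, so the groups did not overlap. The means were 8.10 ± 0.07 and 8.48 ± 0.10 (SD, n = 4 each). Without Prdm1 and Ifitm3, which had served in choosing the cells, the score ran from 7.84 to 7.99 in EHF cells and from 8.21 to 8.47 in E/MB cells. Both groups stood below the PGCs, which averaged 10.003 ± 0.11 at EHF and 10.10 ± 0.12 at E/MB. Posterior mesoderm averaged 7.92 ± 0.29 and knockout cells 8.25 ± 0.60. The EHF mean lay between these and the E/MB mean above both. The summed signal of the 6 germ cell markers ran from 421 to 667 in EHF cells, where 6 markers at the floor would sum to 421, and from 1050 to 1455 in E/MB cells.

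Pluripotency and epiblast genes gave small counts. Of 17 pluripotency genes, 1 was higher and 3 lower (5.88% and 17.6%, against 2.56% and 4.46% over all genes). Those lower were Nanog, Tdgf1, a Nodal co-receptor detected in 0 EHF cells and in E/MB cells 3 and 4, and Dppa5a, detected in 1 EHF cell and 2 E/MB cells. Klf5, a Krüppel-like factor, was higher by 1.42, with 7.91, 9.20, 6.13 and 8.86 in EHF cells, against 6.27, 6.13, 7.91 and 6.13 in E/MB cells, but by 0.47 when its probe sets were averaged. Of 12 genes of the primed epiblast, 2 were lower, namely Sox3, detected in 0 EHF cells and in E/MB cells 1 and 3, and Pim2, detected in 0 EHF cells and in 3 E/MB cells. Leaving out 1 of the E/MB cells took 4 of these under the threshold: Tdgf1 without cell 3 or 4, Dppa5a without cell 2 or 4, Sox3 without cell 3, and Pim2 without cell 1 or 2.

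Kitl, the ligand of Kit, was lower in EHF cells as well. It read 9.54, 10.33, 9.11 and 7.78 in EHF cells, against 11.19, 11.24, 10.52 and 11.23 in E/MB cells, and was detected in all 8. Every EHF cell lay below every E/MB cell. The difference was -1.85 with the brightest of 4 probe sets, -1.08 with the next brightest, and -0.81 with the mean of all 4, of which 1 was at the floor throughout. In PGCs the difference in Kitl between the stages was -1.62, with 7.40 ± 1.52 at EHF and 9.03 ± 1.65 at E/MB. In the list of cytokines with Kit and its ligand, 6 of 21 genes were lower and 1 higher (28.6% and 4.76%, against 4.46% and 2.56% over all genes). Apart from Kit, Kitl and Pim2 they were Pim3 (-1.22, or -0.88 without EHF cell 8, -0.82 without E/MB cell 2 and -0.99 without E/MB cell 4), the peptide gene Apela (-1.10) and the growth factor gene Pdgfa (-1.34) on the lower side, and the kinase gene Pim1 (1.08, or 0.72 without E/MB cell 3, 0.94 without E/MB cell 2, 0.84 without EHF cell 6 and 0.90 without EHF cell 8) on the higher. Apela was -0.50 without EHF cell 6 and -0.59 without E/MB cell 2. Pdgfa was -0.57 without EHF cell 8. With the probe sets of each gene averaged, 2 of the 21 genes were lower and 0 higher.

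**Figure D3:**
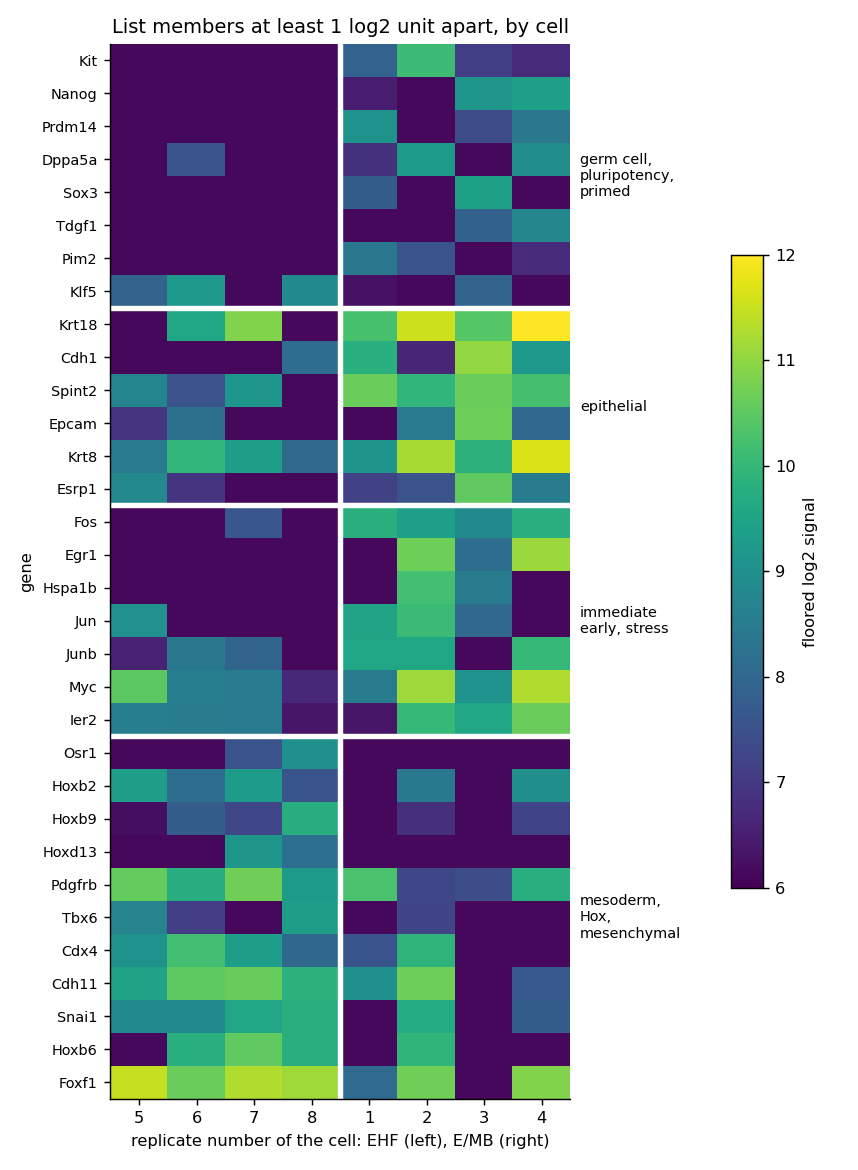
Floored log2 signal (colour, 6 to 12) of the members of 10 gene lists that were at least 1 log2 unit apart, with a row for each gene and a column for each cell, EHF cells 5 to 8 on the left and E/MB cells 1 to 4 on the right. Kit, Nanog, Prdm14, Egr1 and Hspa1b are at the floor in all 4 EHF cells, and E/MB cell 3 is dark over most of the mesodermal block.

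Of 16 measured epithelial genes, 6 were lower in EHF cells and 0 higher, against 4.46% lower over all genes, and the other 10 did not pass the threshold. The median difference was -0.62. Their mean per cell lay between 6.77 and 7.44 in EHF cells and between 7.54 and 8.82 in E/MB cells, without overlap. Without E/MB cell 3, 4 genes were lower and the median was -0.08. Among cells without Xist (3 in each group) 5 were lower, again with a median of -0.08, so the median rested on E/MB cell 3 while most of the called genes did not.

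Spint2, a membrane inhibitor of serine proteases in epithelia, read 8.72, 7.53, 9.16 and 6.13 in EHF cells, against 10.62, 9.95, 10.62 and 10.23 in E/MB cells. All EHF cells lay below all E/MB cells, and the difference was -2.47 (-2.38 without E/MB cell 3). Cdh1, the gene of E-cadherin, was at the floor in EHF cells 5, 6 and 7 and read 8.13 in cell 8, against 9.81, 6.64, 11.03 and 9.20 in E/MB cells. Its difference was -2.54, or -1.92 without E/MB cell 3, and the groups overlapped through E/MB cell 2.

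The keratin partners moved the same way. Krt18 read 6.13, 9.52, 10.86 and 6.13 in EHF cells, against 10.26, 11.53, 10.42 and 11.99 in E/MB cells, a difference of -2.89. Krt8 read 8.47, 9.97, 9.34 and 8.08 in EHF cells, against 9.10, 11.22, 9.85 and 11.65 in E/MB cells, a difference of -1.49. Epcam, an epithelial adhesion molecule, had a difference of -1.50 (-0.72 without E/MB cell 3), and the splicing factor gene Esrp1 one of -1.44 (-0.74 without that cell). In PGCs 0 of the 16 genes were higher or lower between the stages, and Cdh1 averaged 10.76 ± 0.61 at EHF and 10.89 ± 0.44 at E/MB.

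The 250 bases upstream of the annotated start are shown for the lower epithelial genes that the RefSeq promoter table (GRCm38.p6) holds, because Snai1, a repressor of epithelial genes known to bind the E-box CAGGTG, was among the higher genes. The search covered CAGGTG and its reverse complement CACCTG, hence both strands, and capitals mark every match. The sequences run from 5′ to 3′ on the strand of the gene, and Spint2 lies at chr7:29281978-29282227 (minus strand), Krt18 at chr15:102027966-102028215 (plus), Krt8 at chr15:102004343-102004592 (minus) and Epcam at chr17:87635729-87635978 (plus).
Spint2: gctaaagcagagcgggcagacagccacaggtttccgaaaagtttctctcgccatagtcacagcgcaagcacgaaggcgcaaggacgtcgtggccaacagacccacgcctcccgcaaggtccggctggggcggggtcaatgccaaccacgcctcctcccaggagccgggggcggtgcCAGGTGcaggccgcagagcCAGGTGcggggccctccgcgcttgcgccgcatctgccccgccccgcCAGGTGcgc
Krt18: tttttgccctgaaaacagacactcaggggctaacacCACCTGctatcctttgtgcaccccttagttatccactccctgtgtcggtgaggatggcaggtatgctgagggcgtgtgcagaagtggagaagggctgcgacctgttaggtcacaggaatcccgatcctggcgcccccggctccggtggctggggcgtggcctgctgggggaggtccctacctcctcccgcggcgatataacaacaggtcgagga
Krt8: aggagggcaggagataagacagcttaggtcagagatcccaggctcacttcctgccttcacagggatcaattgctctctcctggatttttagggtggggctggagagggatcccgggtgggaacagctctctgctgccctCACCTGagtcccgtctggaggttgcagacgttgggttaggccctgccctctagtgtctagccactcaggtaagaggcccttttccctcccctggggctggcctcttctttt
Epcam: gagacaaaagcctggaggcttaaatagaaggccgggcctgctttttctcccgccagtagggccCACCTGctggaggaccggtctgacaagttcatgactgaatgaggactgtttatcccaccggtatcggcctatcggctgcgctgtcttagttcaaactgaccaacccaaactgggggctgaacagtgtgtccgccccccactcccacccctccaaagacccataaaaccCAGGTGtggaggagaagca

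Spint2 held 3 matches, beginning 74, 55 and 9 bases before the start. Krt18 held 1 at 214 bases, Krt8 1 at 111 bases, and Epcam 2, at 187 and 19 bases. Cdh1 and Esrp1 are named only. The motif occurred in 17.2% of all 32851 promoters of that length, and 19.4% of the 27025 genes in the table held it in at least 1 promoter. It occurred in 4 of the 4 lower epithelial genes in the table and in 5 of the 7 other epithelial genes there. A match describes letters in a window, and binding was not measured.

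Mesenchymal genes were less uniform. Of 18 measured, 3 were higher (16.7%, against 2.56% over all genes) and 0 lower, with a median of 0.05. Snai1 read 8.89, 8.84, 9.55 and 9.76 in EHF cells, against 6.13, 9.68, 6.13 and 7.76 in E/MB cells. It was detected in 4 EHF cells and 2 E/MB cells, and the difference was 1.83, or 1.40 without E/MB cell 3. Cdh11, a mesenchymal cadherin, was higher by 1.73 (0.99 without E/MB cell 3). Pdgfrb, a growth factor receptor, was higher by 1.40, and by 0.93 without E/MB cell 2 and 0.98 without cell 3. Without E/MB cell 3, 1 gene of the list was higher and 2 lower. The general mesenchymal genes Vim and Fn1 were detected in all 8 cells, with differences of -0.62 and 0.25.

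Immediate early genes answer growth factors and handling with rapid transcription. Of 17 immediate early and stress genes, 7 were lower in EHF cells and 0 higher, against 4.46% lower over all genes, and 10 did not pass the threshold. The median difference was -0.60, or -0.05 among cells without Xist, where 7 were again lower, and between 5 and 8 were lower when any 1 cell was left out. Fos, a subunit of the AP1 transcription factor, was at the floor in 3 EHF cells and read 7.63 in cell 7, against 9.82, 9.40, 8.85 and 9.79 in E/MB cells. Every EHF cell lay below every E/MB cell, and the difference was -2.96 (between -2.83 and -3.33 with any 1 cell left out). Egr1, a zinc finger factor, was at the floor in all 4 EHF cells, against 6.13, 10.67, 8.16 and 11.09 in E/MB cells. It was detected in 3 of 4 E/MB cells and was at least 2.61-fold lower in EHF cells.

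Other AP1 genes were among the 7. Jun was detected in 1 EHF cell and 3 E/MB cells (difference -1.59, or -1.03 without E/MB cell 2), and Junb in 2 and 3 cells (-1.52, or -2.41 without E/MB cell 3). Myc, a growth regulator, read 10.49, 8.56, 8.51 and 6.70 in EHF cells, against 8.52, 11.13, 9.08 and 11.29 in E/MB cells, a difference of -1.44 that was -0.82 without EHF cell 8. Ier2 had a difference of -1.16, with -0.62 without EHF cell 8, -0.87 without E/MB cell 2 and -0.66 without E/MB cell 4. The heat shock gene Hspa1b was detected only in E/MB cells 2 (10.21) and 3 (8.53), and without cell 2 it was under the threshold (-0.80). The list mean per cell ran from 7.13 to 7.63 in EHF cells and from 7.81 to 8.73 in E/MB cells. It was 7.66 ± 0.38 in EHF PGCs, 7.62 ± 0.32 in E/MB PGCs, 7.72 ± 0.35 in mesoderm and 7.80 ± 0.33 in knockout cells. The labels give the same dissociation for both groups, and the part of handling in these values was not tested.

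**Figure D4:**
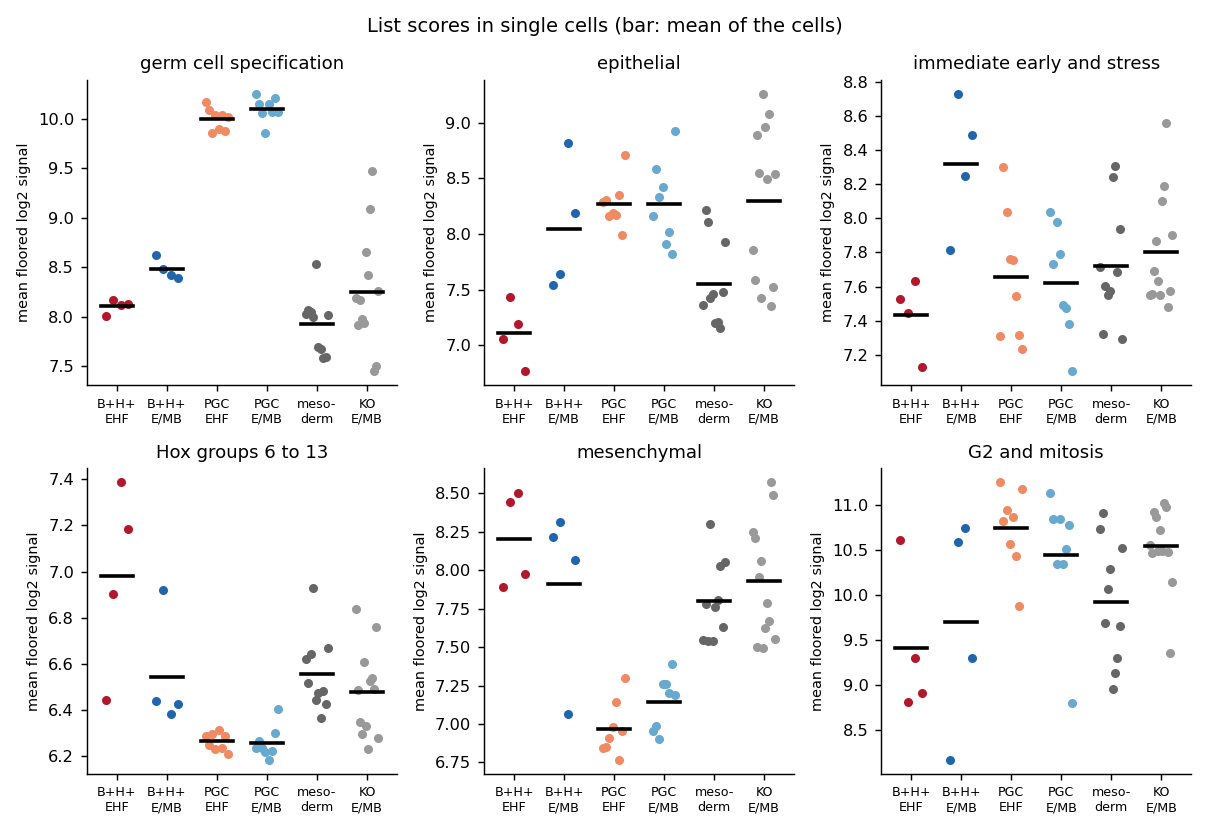
Mean floored log2 signal over each of 6 gene lists (y axis) in single cells; each point is 1 cell, bars are group means, and B+H+ marks the Blimp1+ Hoxb1+ cells. EHF and E/MB Blimp1+ Hoxb1+ cells do not overlap for the germ cell, epithelial and immediate early lists, and overlap for the other 3.

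Hox and early mesoderm genes gave a few higher members. Of 19 Hox genes of groups 6 to 13, 3 were higher and 0 lower (median 0.17), and of 13 of groups 1 to 5, 1 was higher (median 0.30). These are shares of 15.8% and 7.69%, against 2.56% higher over all genes. Hoxb6 read 6.13, 9.76, 10.54 and 9.77 in EHF cells, against 6.13, 9.92, 6.13 and 6.13 in E/MB cells, a difference of 1.97. It was thus detected in 3 EHF cells and 1 E/MB cell, at similar levels where present. Hoxd13, the last gene of its cluster, was detected in EHF cells 7 (9.18) and 8 (8.19) and in 0 E/MB cells, and its floored difference of 1.28 was 0.69 without EHF cell 7. With probe sets averaged that difference was 0.64. Hoxb9 was higher by 1.17, but by 0.52 without EHF cell 8. Hoxb2 was higher by 1.16, and by 0.73 without either E/MB cell 1 or 3, 0.91 without EHF cell 5 and 0.94 without EHF cell 7. Under the scaling to hybridisation controls 2 of the 19 later Hox genes were higher, and with a higher floor (the 95th percentile) 1. In PGCs 0 Hox genes of either list were higher or lower between the stages. The PGC list means lay close to the floor of 6.13, at 6.26 in both stages for groups 6 to 13. They were 6.38 at EHF and 6.41 at E/MB for groups 1 to 5. Such levels left little room for a difference to show, so nothing follows from that count.

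Among 17 regulators of nascent mesoderm, 3 were higher (17.6%, against 2.56% over all genes) and 0 lower. Besides Snai1 they were Cdx4, a caudal factor upstream of Hox genes, and Tbx6, a T-box factor of the paraxial mesoderm. Cdx4 read 9.09, 10.18, 9.34 and 8.03 in EHF cells, against 7.55, 9.91, 6.13 and 6.13 in E/MB cells, a difference of 1.73. Tbx6 was detected in 3 EHF cells and 1 E/MB cell, a difference of 1.40 that was 0.89 without EHF cell 8. Mesp1, an early mesoderm factor, was detected in all 8 cells at 10.55 to 11.59 in EHF cells and 10.68 to 12.04 in E/MB cells. Of 18 genes of the allantois and lateral mesoderm, 2 were higher and 0 lower, namely Foxf1 and Osr1, which was detected in EHF cells 7 (7.57) and 8 (9.004) only (0.96 without cell 7 and 0.48 without cell 8). Isl1, Hand1 and Msx1, other factors of this tissue, were detected in all 8 cells and differed by -0.51, 0.63 and 0.43.

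The GATA factor genes Gata2 and Gata3 were higher as well. Gata3 read 6.13, 9.03, 9.28 and 8.50 in EHF cells, against 6.13, 6.13, 6.13 and 7.44 in E/MB cells, a difference of 1.77. Gata2 read 8.24, 9.69, 9.63 and 9.39 in EHF cells, against 6.13, 8.26, 6.13 and 9.90 in E/MB cells, a difference of 1.63. Lmo2, a partner of GATA factors in blood, was detected in EHF cells 5 and 7 and in 0 E/MB cells. Its difference of 1.28 was 0.83 without EHF cell 5 and 0.79 without EHF cell 7, and -0.26 among the cells with a Y-linked transcript. Of 17 blood and endothelial genes, Gata2 and Lmo2 were the 2 that were higher, with 0 lower, and Tal1 and Gata1 were detected in none of the 8 cells.

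Signalling genes moved both ways. In the Notch list of 16 genes, 2 were higher and 3 lower (12.5% and 18.8%, against 2.56% and 4.46% over all genes). The receptor gene Notch2 read 8.31, 8.54, 6.13 and 9.17 in EHF cells, against 10.87, 10.93, 9.31 and 9.33 in E/MB cells. All EHF cells lay below all E/MB cells, with a difference of -2.07, but the second probe set of Notch2 ran the other way (0.38) and their mean gave -0.85. Rbpj, the DNA-binding partner of Notch, had a difference of -1.22 (-0.92 without EHF cell 5, and -0.22 with probe sets averaged). Rfng, a glycosyltransferase gene of the pathway, had one of -1.11, of -0.94 without EHF cell 6 or 8, of -0.84 without E/MB cell 1 and of -0.61 without E/MB cell 2. It was -0.59 with probe sets averaged. Hes1, a target of the pathway, was higher by 1.67, with 8.54, 9.17, 8.60 and 9.65 in EHF cells, against 7.98, 9.03, 6.13 and 6.13 in E/MB cells. The ligand gene Dll1 was higher by 1.17, but by 0.66 without EHF cell 8 and 0.87 without EHF cell 5, and 0.86 without any of E/MB cells 1, 2 or 4. It was 1.87 without EHF cell 7 and 2.11 without E/MB cell 3.

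In the FGF list of 19 genes, 2 were higher and 3 lower. These are shares of 10.5% and 15.8%, against 2.56% and 4.46% over all genes and 4.58% and 9.16% over broadly detected ones. Besides Egr1, the lower genes were Etv5, a transcriptional target (-1.28, or -0.87 without EHF cell 8), and the receptor gene Fgfr1 (-1.02, or -0.22 with probe sets averaged, -0.81 without EHF cell 5, -0.96 without EHF cell 7, -0.95 without E/MB cell 3 and -0.93 without E/MB cell 4). The ligand gene Fgf3 was higher by 1.21, but by 0.41 without E/MB cell 3, 0.87 without E/MB cell 1 and 0.99 without EHF cell 6. The receptor gene Fgfr3 was detected in 3 EHF cells, at 8.82, 7.66 and 8.08 in cells 6 to 8, and in 0 E/MB cells. Its difference was 1.54, or 0.77 with probe sets averaged.

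Of 16 BMP ligands and receptors, 2 were lower (12.5%, against 4.46% over all genes and 9.16% over broadly detected ones) and 0 higher. They were the ligand gene Bmp7 (-1.29, -0.95 without E/MB cell 1, -0.87 without EHF cell 5, -0.97 without EHF cell 8) and the receptor gene Acvr2b (-1.11, -0.47 without EHF cell 8, -0.92 without E/MB cell 3). With probe sets averaged they were at -0.46 and -0.40, and 0 of the 16 were lower. Among 12 BMP targets, the inhibitor gene Smad6 was lower (-1.30, or -0.69 without EHF cell 6) and Gata3 higher, whereas Id1 was detected in all 8 cells with a difference of 0.00. Bmp4, the BMP ligand of the allantois and extraembryonic tissue, was detected in all 8 cells, with a difference of -0.44. Of 25 Wnt pathway genes, the receptor gene Fzd2 (-1.22) and the secreted inhibitor gene Notum (-1.03) were lower and 0 higher. Fzd2 was -0.99 without EHF cell 5 or 6 or E/MB cell 1, and -0.998 without E/MB cell 2. Notum was -0.88 without EHF cell 6 or 8, -0.91 without EHF cell 7, -0.98 without E/MB cell 2 and -0.86 without E/MB cell 4. In the retinoic acid list of 14 genes, Crabp1, a retinoic acid binding protein, read 11.04, 11.73, 11.46 and 11.78 in EHF cells, against 11.08, 10.76, 6.13 and 10.14 in E/MB cells. Its difference of 1.98 was 0.85 without E/MB cell 3.

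Of 15 apoptosis genes, 1 was lower in EHF cells and 1 higher. The share lower was 6.67%, beside 4.46% over all genes and 9.16% over broadly detected ones. Pmaip1, the gene of the BH3-only protein Noxa, was at the floor in all 4 EHF cells, against 8.70, 7.95, 8.51 and 8.30 in E/MB cells. It was detected in 0 of 4 and 4 of 4 cells and was at least 2.69-fold lower in EHF cells. Bcl2l11, another BH3-only gene, was higher by the floored means, but was detected in EHF cells 7 and 8 only, was under the threshold without either and without any of E/MB cells 1, 2 and 4, and differed by -0.087 with probe sets averaged. Of 13 cell cycle inhibitors, 3 were lower (23.1%, against 4.46% over all genes) and 0 higher (median -0.54). Gadd45a was detected in 1 EHF cell and 2 E/MB cells (-1.45, or -0.72 without E/MB cell 4), Cdkn1a in 0 EHF cells and in E/MB cells 1 and 3 (-1.12, or -0.98 without cell 1 and -0.51 without cell 3), and Btg1 differed by -1.20 (-0.44 without EHF cell 6, -0.84 without E/MB cell 4).

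Genes of G2 and mitosis split both groups instead of separating them. Their mean was 10.61 in EHF cell 5 and 10.59 and 10.75 in E/MB cells 2 and 3, while it lay between 8.81 and 9.30 in the other EHF cells and was 8.17 and 9.29 in E/MB cells 1 and 4. Of 25 genes, 4 were lower and 1 higher (median -0.31), and this balance depended on single cells. These are shares of 16% and 4%, against 4.46% lower and 2.56% higher over all genes. Over the broadly detected genes the shares were 9.16% and 4.58%. The balance changed with the cell left out. It was 9 lower and 1 higher without EHF cell 5, 10 and 0 without E/MB cell 1, 6 and 1 without E/MB cell 4, 2 and 1 without EHF cell 8, and 2 lower and 3 higher without either E/MB cell 2 (median 0.01) or E/MB cell 3 (median 0.00). Kif11, a mitotic kinesin, read 10.37, 6.13, 6.13 and 6.13 in EHF cells, against 8.59, 9.98, 10.54 and 7.43 in E/MB cells, a difference of -1.94. Kif23, a kinesin of cytokinesis, differed by -1.72 (-0.78 with probe sets averaged) and was detected in EHF cell 5 only among its group. Top2a, a topoisomerase, and the kinase gene Aurkb differed by -1.03 and -1.04. Top2a was -0.69 without EHF cell 7, -0.83 without EHF cell 8, -0.92 without E/MB cell 2 and -0.98 without E/MB cell 3. It was -0.44 with probe sets averaged. Aurkb was -0.996 without EHF cell 6, -0.62 without EHF cell 7, -0.86 without EHF cell 8, -0.57 without E/MB cell 2 and -0.55 without E/MB cell 3. The kinase gene Nek2 was higher by 1.49, and by 0.78 without E/MB cell 1.

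Chromatin genes were mostly level. Of 18 histone methylation genes, 3 were higher (16.7%, against 2.56% over all genes and 4.58% over broadly detected ones) and 0 lower. Kdm3a, an H3K9 demethylase, read 10.43, 9.48, 10.14 and 9.73 in EHF cells, against 8.55, 7.88, 9.01 and 9.10 in E/MB cells. Ezh2, the methyltransferase of Polycomb, read 11.17, 10.96, 11.24 and 11.35 in EHF cells, against 10.40, 9.79, 10.88 and 9.51 in E/MB cells. In both genes every EHF cell lay above every E/MB cell, with differences of 1.31 and 1.04. With arrays scaled to the hybridisation controls they were 1.03 and 0.76. Kmt2a was higher by 1.02, but by 0.54 without E/MB cell 2 and between 0.84 and 0.97 without any of EHF cells 5, 6 and 7 or E/MB cell 1. With probe sets averaged its difference was 0.28. Ezh2 was 0.98 without EHF cell 8, 0.92 without E/MB cell 2 and 0.82 without E/MB cell 4. Of 12 DNA methylation and demethylation genes 0 passed in either direction. The ribosomal, respiratory chain and housekeeping lists likewise had 0 of 15, 0 of 22 and 0 of 10 genes higher or lower, with list means of 12.54 in both groups, 11.31 and 11.32, and 10.63 and 10.55 in EHF and E/MB cells.

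Of all genes detected in every EHF cell, Fabp7, a fatty acid binding protein of radial glia and other progenitors, had the largest difference. It read 11.37, 9.69, 11.21 and 11.76 in EHF cells, against 6.13, 9.25, 8.43 and 6.13 in E/MB cells, higher by 3.52 with every EHF cell above every E/MB cell. In PGCs it averaged 6.52 ± 1.11 at EHF and 7.51 ± 1.99 at E/MB (n = 8 each, detected in 1 and 3 cells), a difference of -0.99. It averaged 8.06 ± 2.21 in mesoderm. Next came Malsu1, a mitochondrial ribosome factor (2.53), Crmp1, a cytoskeletal phosphoprotein (2.52), Zbtb34 (2.50), 2700038G22Rik (2.48), Pcnx (2.39) and Bysl, a ribosome assembly factor (2.32), in each of which all EHF cells were above all E/MB cells. With probe sets averaged, Malsu1 was at 1.27, Zbtb34 at 1.25 and Pcnx, under the threshold, at 0.71. The tRNA methyltransferase gene Trmt61a and Tmem51 were detected in all 4 EHF cells and 0 E/MB cells and were at least 2.71-fold and 2.45-fold higher.

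Among genes detected in every E/MB cell, the 15 largest differences downward included Fos and Krt18, described above. Gfpt2, an enzyme of hexosamine synthesis, read 6.38, 6.13, 6.13 and 6.13 in EHF cells, against 9.23, 9.80, 8.64 and 9.30 in E/MB cells, at least 4.94-fold lower. Selenop, a secreted selenium carrier, was at the floor in all EHF cells, against 10.35, 9.14, 7.03 and 10.12 in E/MB cells, at least 4.67-fold lower. In PGCs it averaged 10.13 ± 1.78 at EHF and 10.24 ± 1.92 at E/MB. Gfm2, a mitochondrial translation factor, was at least 4.20-fold lower, and the laminin receptor gene Itga6 at least 3.07-fold.

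Pdk1 and Egln3 were also among those 15. Pdk1, a kinase that restrains pyruvate oxidation, read 6.13, 6.13, 6.13 and 8.94 in EHF cells, against 9.89, 9.26, 10.32 and 9.01 in E/MB cells. Egln3, an oxygen-sensing prolyl hydroxylase, read 8.31, 7.78, 6.13 and 6.13 in EHF cells, against 8.90, 9.97, 9.85 and 10.40 in E/MB cells. Every EHF cell lay below every E/MB cell in both, with differences of -2.79 and -2.69. In the glycolysis list, 1 of 17 genes was lower (Pdk1) and 1 higher (Aldoc, detected in EHF cells 5 and 8 only), with a median of -0.24.

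Whole profiles were about as alike between the groups as within them. Over the 7213 broadly detected genes, Spearman's rho had a median of 0.69 between EHF cells (6 pairs), 0.69 between E/MB cells (6 pairs) and 0.67 between EHF and E/MB cells (16 pairs). Each of the 8 cells had a higher median rho with the E/MB knockout cells (0.65 to 0.73) than with either group of PGCs (0.55 to 0.63). With posterior mesoderm the median rho was 0.57 to 0.64, close to that with PGCs. It was slightly below both PGC groups for E/MB cell 3, and below the E/MB PGCs for E/MB cell 1. These correlations are across genes within pairs of cells and share array depth and amplification, so they describe the cells only.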

How the data were processed

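Per the labels' protocols, each array carried the PCR-amplified cDNA of 1 cell. The authors deposited linear intensity values, made with MAS5 per the submitters' processing notes (version and target scale not given in the sources used here). Of 45101 probe sets, 34945 had 1 gene symbol in the platform annotation and were used; 932 had several and 9160 none. For each gene the probe set with the highest mean over all cells was kept, giving 18193 genes. Intensities were floored at 70.2, the median over cells of the 90th percentile of 126 receptor and keratin-associated probe sets, and log2 transformed. 1 value was missing. No pair of arrays held identical values, and 0 sample columns were left unmapped.

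Group means of cells were compared in Python 3.11.15 with pandas 2.3.3, numpy 2.4.6 and scipy 1.17.1, without a test, because no embryo is named. The code was tested on simulated data. Genes named are the 15 largest differences each way among genes detected in all cells of the higher group, up to 10 each way detected in all cells of one group and none of the other, list members, the genes of choice, Foxf1 and Hoxd9, Ppp2cb and Abca4, and genes that separated the opposite way in PGCs, of which there were 0. Bounds written as "at least" set the brighter group's mean against the mean detection limit of the dim arrays, in log2 units. The members and lists were chosen with earlier results of these data known. Alternatives were other floors, probe set averaging, 3 scalings, a stricter detection limit, cells without Xist, cells with a Y-linked transcript, and each cell left out. RefSeq promoters are of GRCm38.p6.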

Additional observations from a re-analysis of the deposited data

Results flagged for a closer look

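In each group of 4 cells, a cell far from the other 3 was sought for many of the genes named, the list means and the array measures. Of 246 values examined, 31 had such a cell, where chance gives about 1 in 20, or 12.3; many of the 31 had the other 3 cells at the floor, where this measure marks any cell above it. Any set of 4 equal values counts among the 246 but could not be flagged. Nothing is weighed here beyond the values.

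EHF cell 5 was high for Kif11 (10.37), Kif23 (10.45), Jun (9.03), Notum (7.90) and Gfpt2 (6.38), and had the lowest mean over DNA replication genes (9.99, against 10.39 to 10.47 in the others). EHF cell 6 was high for Dppa5a (7.58) and Grik3 (7.33) and low for the mean of cell cycle inhibitors (6.51). EHF cell 7 was high for Fos (7.63). EHF cell 8 was high for Cdh1 (8.13), Pdk1 (8.94), Tfap2c (6.32) and the endoderm mean (6.74), and low for Ier2 (6.36) and the mean of cytokine genes (7.19).

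E/MB cell 2 was high for Hoxb6 (9.92), Tbx6 (7.25), Lmo2 (6.66), Crmp1 (7.67) and the mean of Hox groups 6 to 13 (6.92), and low for Pou5f1 (7.12). E/MB cell 3 was high for Dll1 (9.90), Klf5 (7.91) and the heart mesoderm mean (6.47), and low for Kitl (10.52), Junb (6.13), the trophoblast mean (7.26) and probe sets over the strict limit (6202). E/MB cell 4 was high for Gata3 (7.44) and Pcnx (6.83). E/MB cell 1 was apart in 0 of the values examined.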

How the results depend on the processing

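The 466 higher and 811 lower genes became 1822 and 2409 with no floor, 274 and 478 with a higher floor, 242 and 428 with probe sets averaged, and 897 and 1513 with Y-linked cells only. Scaling to hybridisation controls left 238 higher and 1153 lower genes. With 1 cell left out they ran from 495 to 663 and from 771 to 1060. The 58 genes with every EHF cell above and 123 with every EHF cell below became 142 and 231 with no floor, 28 and 252 with hybridisation controls, 181 and 384 without Xist cells, and 512 and 968 with Y-linked cells; array-median centring gave 89 above. With 1 cell left out they ran from 84 to 140 and from 175 to 237. Fewer cells alone make such separation easier. The 7 and 32 genes detected in one group only became 26 and 122 without Xist cells and 149 and 406 with Y-linked cells; with 1 cell left out they ran from 11 to 24 and from 41 to 80, and the stricter detection limit left 16 of the second kind. Of 112 named genes past 1 log2 unit, 48 stayed past it in all 16 alternatives and 64 did not, 35 of them when probe sets were averaged. Not all of these limits are given beside the genes above. The sign turned for Iqgap1 (-0.14) and Bcl2l11 (-0.087) with probe sets averaged, and for Lmo2 (-0.26) with Y-linked cells. No paired analysis was possible because the groups share no replicate numbers, and no test between the groups was made. Depth limits every call near the floor.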

Other observations

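Some gene groups not described above held no gene past the threshold. Of 19 imprinted genes, 13 of the endoderm, 9 of the heart mesoderm, 9 of the trophoblast and 6 of gap junctions, 0 were higher or lower by 1 log2 unit. The gap junction gene Gja1 had 11.95, 11.26, 11.69 and 11.13 in EHF cells, against 9.17, 10.80, 11.24 and 11.12 in E/MB cells, a difference of 0.93 with its brightest probe set; others of its probe sets gave 1.02 to 1.16, and 1 was at the floor. Among 21 genes of the extracellular matrix 1 was higher and 1 lower. The basement membrane gene Nid2 was higher (1.05, or 0.86 without EHF cell 8, 0.87 without E/MB cell 1 and 0.75 without E/MB cell 2). Its relative Nid1 was lower (-1.37, or -0.85 without E/MB cell 1, -0.97 without E/MB cell 4 and -0.46 with probe sets averaged), and was detected in 0 EHF cells and in 2 E/MB cells. Of 27 genes of DNA replication and the G1/S step, the cyclin gene Ccne2 (1.18) and the polymerase gene Pola1 (1.04) were higher and 0 lower. Without 1 cell, Ccne2 fell to as little as 0.44 (E/MB cell 2) and Pola1 to 0.68 (E/MB cell 1 or 4), while Pola1 was 1.60 without E/MB cell 3.

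Of the 37 list means, 5 did not overlap between the groups. All 5 were lower in EHF cells: germ cell specification, primed epiblast, epithelial, cytokine and Kit ligand, and immediate early genes. Some genes are in more than 1 of these lists, Kit and Pim2 among them, so the 5 are not independent. How many list means would separate by chance was not worked out, so the count has no background beside it. For primed epiblast genes the highest EHF mean was 6.57 and the lowest E/MB mean 6.59, close to the floor of 6.13. The array median of the broadly detected genes averaged 8.76 in EHF cells and 8.89 in E/MB cells, with overlap. The part of this array difference in the shared direction was not tested.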
